A study of Mus musculus with 12 samples.

Results

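The genes described here are 37 imprinted genes of the mouse, that is, genes for which one parental copy is kept largely silent by marks set in the germ line. They were taken from 27179 genes counted in the tibialis anterior (TA), the fast muscle at the front of the lower leg. Members were chosen from earlier results of the same comparison. For that reason their fold changes, adjusted p-values and counts are a description of these muscles, and nothing is inferred from how many of them passed a threshold.

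Of the 37 genes, 14 are listed as maternally expressed, 20 as paternally expressed and 3 (*Gnas*, *Ube3a* and *Inpp5f*) as dependent on tissue or isoform. The listing does not state that a gene is imprinted in adult muscle. They lie on 9 chromosomes, 17 of them on chromosome 7. RNA-seq was done on 12 TA muscles of wild-type male C57BL/6N mice, which reached the laboratory at 6 to 8 weeks of age and were used within 2 weeks. The 6 Control muscles received 10 μg of empty pcDNA3 plasmid and the 6 *FRAIL1* muscles 10 μg of plasmid carrying the full-length human long noncoding RNA *FRAIL1*, and muscles were taken at day 7. In each of 6 mice one TA served as Control and the opposite TA received *FRAIL1*. All 12 muscles had hyaluronidase injected and were electroporated, so Control muscles are handled and not untouched tissue. The plasmid uses the CMV promoter, which is active in many cell types, and its human transcript was not measured in these counts of mouse genes. Poly(A)-selected RNA of whole muscle sums all of its cell types, so fewer cells of a type and less RNA per cell cannot be told apart. The 12 muscles come from one inbred strain and counts were kept per gene, so the parental copies were not distinguished and imprinting itself was not measured.

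Imprinted genes sit in clusters, each controlled by a stretch of DNA whose CpG methylation differs between the maternal and the paternal chromosome. Many act on fetal growth: paternally expressed *Igf2* promotes growth, whereas maternally expressed *Igf2r*, *Grb10*, *Cdkn1c* and *H19* restrain it. Several, among them *H19*, *Igf2*, *Dlk1*, *Mest*, *Peg3* and *Plagl1*, are strongly expressed in the embryo, fall in most tissues after birth, and are used again by muscle precursor cells and young fibers when muscle is repaired.

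Total counts ranged from 44848322 to 60527385 per muscle. *FRAIL1* muscle 5 stood apart from the other muscles: its TMM scaling factor was 1.193, against 0.935 to 1.07 in the 11 others. Of the 34 members that passed the filter on low counts, 24 (70.6%) had their highest value of all 12 muscles in *FRAIL1* muscle 5, against 3613 of the 15502 genes tested (23.3%). The fold changes of most members described in full are therefore also given without that muscle. Levels are CPM, a gene's count in proportion to its library's total scaled with the TMM factor, and log2 fold changes set *FRAIL1* against Control and come from the quasi-likelihood test of edgeR, with p-values adjusted after Benjamini-Hochberg over all genes tested and a threshold of 0.05. SE stands for the standard error of a log2 fold change. Some counts are also given for DESeq2 and limma, which called 2232 and 1836 of these 15502 genes. For counts at an unadjusted p-value under 0.05 no share over all genes is given. Those counts therefore have no baseline here and are not read as an excess.

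Among the 34 members tested, 5 rose and 1 fell in the *FRAIL1* muscles. *H19*, *Igf2*, *Igf2r*, *Peg3* and *Grb10* were higher and *Asb4* was lower. That is 17.6% of the members, beside 6.28% of all genes tested, or 4.43% higher and 1.85% lower. The 6 *FRAIL1* values did not overlap the 6 Control values for 7 members (20.6%), beside 4.88% of all genes: *H19*, *Igf2*, *Mest*, *Peg3*, *Grb10* and *Cdkn1c* above and *Asb4* below. The fold change was positive for 24 members and negative for 10, and the median was 0.40 on the log2 scale, beside 0.0096 over all genes. Without *FRAIL1* muscle 5 the median was 0.21, and 9 members were higher and 1 lower, beside 6.22% of the 15590 genes then tested being called. The 4 members called in addition were *Mest*, *Cdkn1c*, *Plagl1* and *Peg10*. Each of the 24 positive fold changes was smaller without that muscle, 21 of them were still positive, and all 10 negative ones were still negative. Leaving out instead any one of Control muscles 1 to 5, *FRAIL1* muscle 1 or *FRAIL1* muscle 4 left 3 members called, *H19*, *Igf2* and *Peg3*. Those fits called 364 to 527 genes in all, against 974 with all 12 muscles, so fewer calls were not particular to the members. *Phlda2*, *Magel2* and *Snrpn* were not tested, with 28, 15 and 30 counts in all 12 muscles together.

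**Figure D1:**
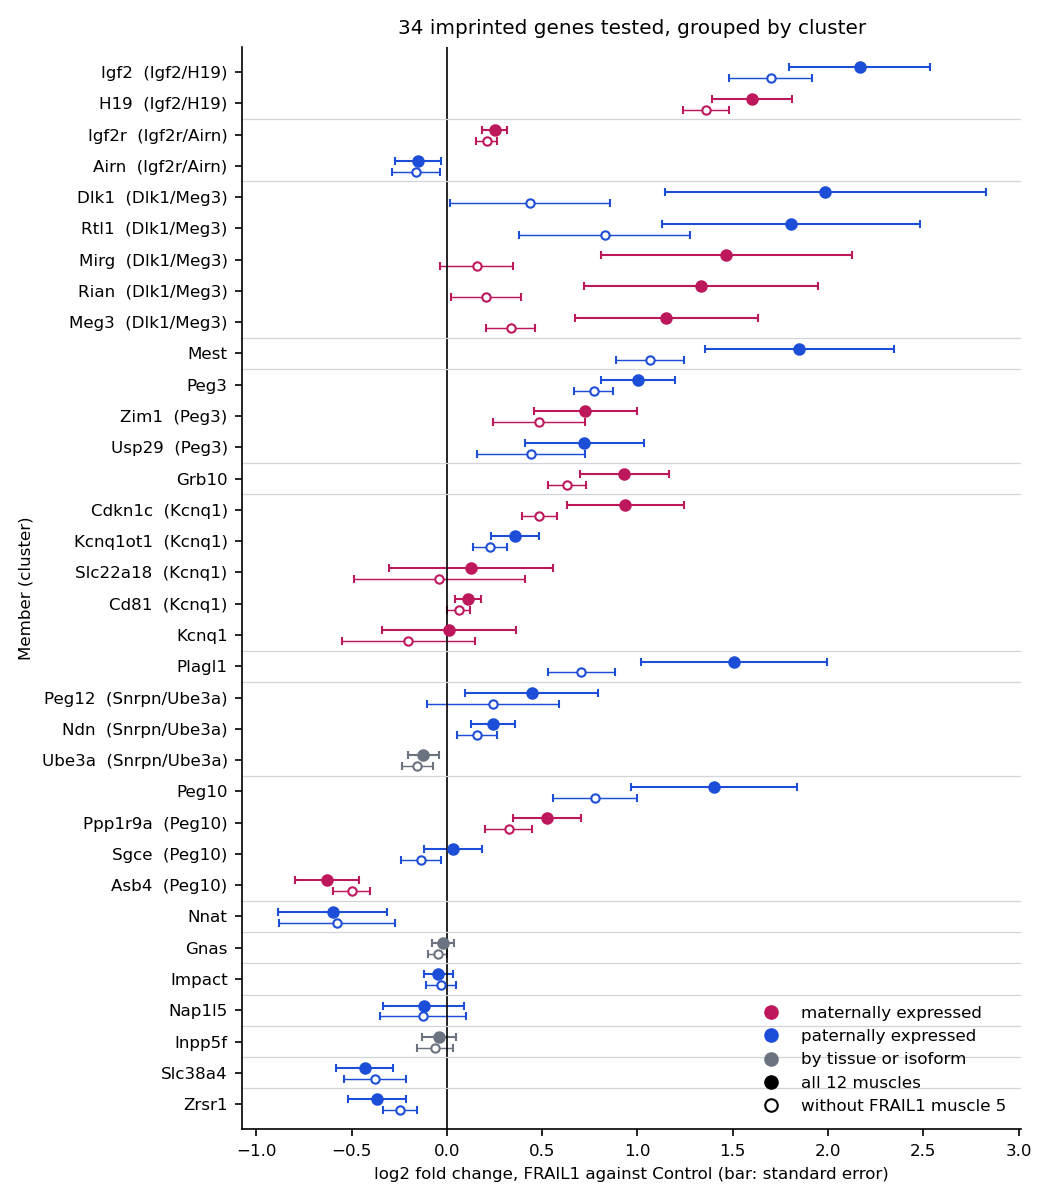
log2 fold changes of the 34 tested members, *FRAIL1* against Control, grouped by cluster, with bars for the standard error. Filled points use all 12 muscles and open points leave out *FRAIL1* muscle 5, and the open points of the Dlk1/Meg3 cluster lie between 0.16 and 0.83, far to the left of the filled ones.

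*H19* and *Igf2* were higher in every *FRAIL1* muscle than in any Control muscle. They are neighbors on chromosome 7 that share enhancers: *H19*, a noncoding RNA, is transcribed from the maternal and *Igf2*, insulin-like growth factor 2, from the paternal chromosome. *H19* (Gene ID 14955; GRCm38 chromosome 7, 142575530 to 142578146) had the highest level per length of the members, 637 CPM per kilobase in Control and 1931 in *FRAIL1* muscles. Its lowest, median and highest values were 1372, 1567 and 1757 CPM in Control muscles and 2963, 4260 and 8366 CPM in *FRAIL1* muscles. It thus took between 0.13% and 0.166% of all counts in Control muscles and between 0.302% and 0.998% in *FRAIL1* muscles. The mean was 1567 ± 129.7 CPM in Control and 4750 ± 1943 CPM in *FRAIL1* muscles (SD, n = 6 each), a 3.03-fold difference. Its log2 fold change was 1.60 (SE 0.21, adjusted p = 0.00244 by edgeR) and 1.36 without *FRAIL1* muscle 5 (adjusted p = 6.5e-05 by edgeR).

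*Igf2* (Gene ID 16002; 142650768 to 142666816) measured 41.4, 47.3 and 56.1 CPM at the lowest, median and highest Control muscle and 90.5, 184.9 and 509.5 CPM in *FRAIL1* muscles. Means were 47.9 ± 5.21 and 215 ± 152 CPM (SD, n = 6 each), a 4.49-fold difference and the largest log2 fold change of the members, 2.17 (SE 0.37, adjusted p = 0.0118 by edgeR). With *FRAIL1* muscle 5 left out it was 1.70 (adjusted p = 0.00222 by edgeR). In both genes *FRAIL1* muscles 5 and 1 were highest and muscles 3 and 2 lowest. The CPM of *H19* was 27.5 to 39.5 times that of *Igf2* in Control muscles and 16.4 to 32.7 times in *FRAIL1* muscles, ranges that overlap. Other annotated genes, the gene model *Gm49394* and the antisense *Igf2os*, cover 64.5% of the exon sequence of *Igf2*. No source used here says whether counting took the strand into account. *Igf2os*, looked up after the values of *Igf2* were seen, had a mean of 0.274 CPM in Control and 0.673 CPM in *FRAIL1* muscles.

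Both RNAs carry a microRNA hairpin on their own strand, miR-675 in the exon of *H19* and miR-483 in an intron of *Igf2*, and *Mest* carries miR-335. A microRNA represses mRNAs that match its seed, bases 2 to 8, shown in capitals. The mature sequences (RefSeq, GRCm38.p6) are shown because their 3 host RNAs were higher in all 6 *FRAIL1* muscles than in any Control muscle, and no seed occurs more than once among them.
miR-675-3p: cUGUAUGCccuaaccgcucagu
miR-675-5p: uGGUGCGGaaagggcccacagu
miR-483-3p: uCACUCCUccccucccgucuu
miR-483-5p: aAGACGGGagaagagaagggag
miR-335-5p: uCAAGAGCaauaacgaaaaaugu
miR-335-3p: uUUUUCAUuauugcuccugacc
Mature microRNAs are too short for a poly(A) library, so these values are levels of the host genes only.

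**Figure D2:**
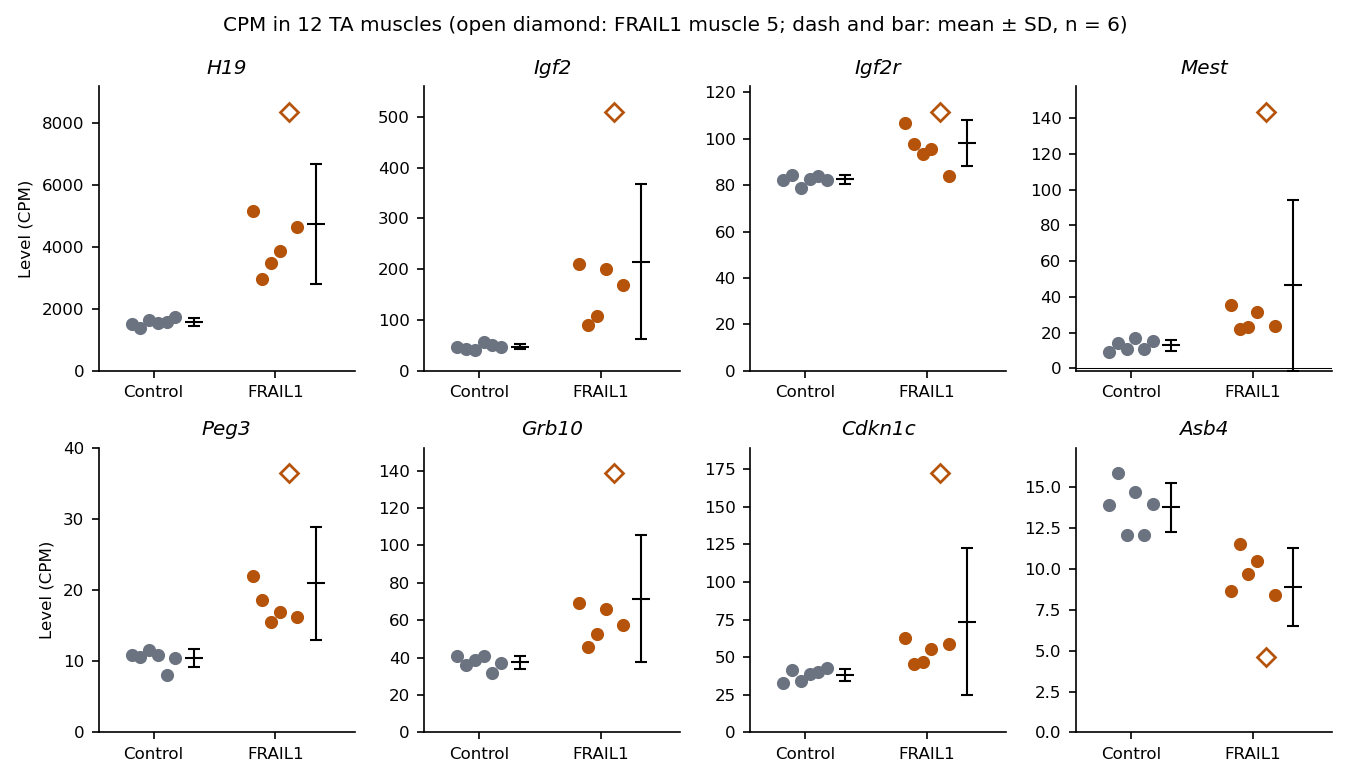
CPM (vertical axes, starting at 0) of 8 members in each of 6 Control and 6 *FRAIL1* muscles, with the mean and SD beside each group and *FRAIL1* muscle 5 as an open diamond. The groups do not overlap for 7 of the 8 genes, and for *Igf2r* *FRAIL1* muscle 6, at 83.9 CPM, lies below the highest Control muscle at 84.5.

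*Igf2r*, the maternally expressed receptor that takes up IGF2 and sends it to the lysosome for degradation, was also higher, by much less. The gene (Gene ID 16004; chromosome 17, 12682406 to 12769706) measured 78.9, 82.5 and 84.5 CPM at the lowest, median and highest Control muscle and 83.9, 96.4 and 111.5 CPM in *FRAIL1* muscles. In 5 of 6 *FRAIL1* muscles it was above every Control muscle. Means were 82.4 ± 1.92 and 98.1 ± 9.85 CPM (SD, n = 6 each), for a log2 fold change of 0.25 (SE 0.06, adjusted p = 0.0356 by edgeR), and 0.21 without *FRAIL1* muscle 5 (adjusted p = 0.038 by edgeR). Without any one Control muscle, *FRAIL1* muscle 1 or *FRAIL1* muscle 4 it did not pass, with adjusted p-values by edgeR between 0.0573 and 0.0814. *Airn*, the paternally expressed noncoding RNA that runs against *Igf2r* and silences it in cis, did not pass the threshold. Its values were 2.84, 3.63 and 4.44 CPM in Control and 3.04, 3.34 and 3.70 CPM in *FRAIL1* muscles, with a log2 fold change of -0.15 (SE 0.12, adjusted p = 0.442 by edgeR) and of -0.16 without *FRAIL1* muscle 5.

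*Grb10*, an adaptor that binds the insulin and IGF1 receptors and dampens their signal, rose in the *FRAIL1* muscles. It is maternally expressed outside the brain. The gene (Gene ID 14783; chromosome 11, 11930499 to 12037428) measured 31.8, 37.8 and 40.8 CPM in Control muscles and 45.5, 61.7 and 138.5 CPM in *FRAIL1* muscles at the lowest, median and highest, with no overlap. Means were 37.5 ± 3.38 and 71.5 ± 33.9 CPM (SD, n = 6 each), for a log2 fold change of 0.93 (SE 0.23, adjusted p = 0.0396 by edgeR). Without *FRAIL1* muscle 5 the log2 fold change was 0.63 and the adjusted p-value by edgeR 0.00242. Without any one Control muscle, or without *FRAIL1* muscle 1 or 4, it did not pass, with adjusted p-values by edgeR between 0.0617 and 0.0749. Nor did it pass in edgeR with a block for the replicate number, which no label ties to a mouse (adjusted p = 0.0712).

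*Mest*, a paternally expressed membrane protein of the α/β-hydrolase family, was higher in 6 of 6 *FRAIL1* muscles than in any Control muscle, but its spread was wide. The gene (Gene ID 17294; chromosome 6, 30733506 to 30748466) measured 9.16, 12.7 and 17.1 CPM in Control muscles and 21.9, 27.6 and 143.6 CPM in *FRAIL1* muscles. *FRAIL1* muscle 5 was at 143.6 CPM and the next at 35.4. The log2 fold change of 1.85 (SE 0.50) had an adjusted p-value of 0.0508 by edgeR, the value nearest to the threshold on its outer side, where *Asb4* was nearest on the inner side. With *FRAIL1* muscle 5 left out it was 1.07 (adjusted p = 0.00702 by edgeR). *Copg2* overlaps 23.1% of its exon sequence.

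The Peg3 cluster on chromosome 7 holds 3 members, and all had a positive fold change. *Peg3*, a paternally expressed zinc finger protein that marks progenitor cells in muscle and other tissues, rose. The gene (Gene ID 18616; 6703892 to 6730462) measured 8.09, 10.8 and 11.6 CPM in Control and 15.5, 17.8 and 36.4 CPM in *FRAIL1* muscles. Means were 10.5 ± 1.21 and 20.97 ± 7.91 CPM (SD, n = 6 each), for a log2 fold change of 1.0 (SE 0.19, adjusted p = 0.0145 by edgeR), and 0.77 without *FRAIL1* muscle 5 (adjusted p = 4.94e-04 by edgeR). Its neighbors were at low levels and did not pass. *Zim1*, a maternally expressed zinc finger gene, measured 0.517, 0.733 and 0.873 CPM in Control and 0.665, 1.01 and 2.08 CPM in *FRAIL1* muscles, for a log2 fold change of 0.73 (SE 0.27, adjusted p = 0.103 by edgeR). *Usp29*, a deubiquitinase gene on the paternal chromosome, measured 0.212, 0.329 and 0.505 CPM and 0.412, 0.498 and 1.12 CPM, for a log2 fold change of 0.72 (SE 0.31, adjusted p = 0.147 by edgeR). For both the groups overlapped, and the log2 fold changes were 0.48 and 0.44 without *FRAIL1* muscle 5.

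The CpG content in front of the members' transcription starts differed widely. Where RefSeq gives several starts, the one with the most CpG in the 250 bases before it was taken. Stretches for 4 called members are shown with each CG in capitals, since CG is the pair that carries the methylation. For *H19* no stretch was available. The stretches shown were taken for their place before a start, not as the regions that control imprinting. They were read for *Igf2* from chr7:142658805-142659054, for *Peg3* from chr7:6730420-6730669, for *Grb10* from chr11:12037421-12037670, all on the minus strand, and for *Asb4* from chr6:5390160-5390409 on the plus strand (GRCm38.p6).
Grb10: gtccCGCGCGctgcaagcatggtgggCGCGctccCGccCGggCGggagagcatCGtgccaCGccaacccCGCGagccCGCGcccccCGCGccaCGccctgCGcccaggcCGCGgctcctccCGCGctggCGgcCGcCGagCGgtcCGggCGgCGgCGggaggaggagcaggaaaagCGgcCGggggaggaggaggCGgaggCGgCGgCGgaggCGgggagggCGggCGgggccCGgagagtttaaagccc
Igf2: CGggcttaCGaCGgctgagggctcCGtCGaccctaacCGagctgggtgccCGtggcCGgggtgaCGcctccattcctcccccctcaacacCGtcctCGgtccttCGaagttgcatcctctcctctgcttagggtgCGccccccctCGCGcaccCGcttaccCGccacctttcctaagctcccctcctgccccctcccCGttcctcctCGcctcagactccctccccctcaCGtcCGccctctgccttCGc
Peg3: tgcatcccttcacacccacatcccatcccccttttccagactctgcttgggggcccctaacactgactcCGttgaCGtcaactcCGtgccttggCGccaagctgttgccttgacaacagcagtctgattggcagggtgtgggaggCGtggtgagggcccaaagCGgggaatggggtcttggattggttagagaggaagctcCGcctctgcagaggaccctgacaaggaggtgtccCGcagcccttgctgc
Asb4: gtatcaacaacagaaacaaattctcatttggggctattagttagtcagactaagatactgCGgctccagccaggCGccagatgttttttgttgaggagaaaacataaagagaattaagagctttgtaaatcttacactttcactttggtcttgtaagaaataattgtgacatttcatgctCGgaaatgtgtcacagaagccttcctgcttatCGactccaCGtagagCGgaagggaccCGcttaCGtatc
The stretch of *Grb10* holds 40 CG, more than those of 98.5% of 27025 genes, and that of *Igf2* holds 22. Those of *Peg3* and *Asb4*, which moved in opposite directions, hold 8 each, near the median of 6 over all genes. That of *Peg3* overlaps the stretch before *Usp29* (chr7:6730333-6730582), which is read the other way. *Mest* has 14 and *Igf2r* 27. The motif CANNTG (the E-box bound by MyoD and related factors, which reads alike on both strands) was found before 17 of the 30 members with a stretch, beside 65.6% of all genes. It was found before *Igf2r*, *Mest* and *Asb4* and not in the windows of *Igf2*, *Peg3* and *Grb10*. CAGCTG, one form of it, was found before 4 of the 30 members and 12.7% of all genes. No methylation was measured here.

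The Kcnq1 cluster, also on chromosome 7, has 6 members, of which 5 were tested. None passed the threshold in edgeR, 2 had an unadjusted p-value under 0.05, and 1 passed in DESeq2 and in limma. *Cdkn1c*, which encodes p57, an inhibitor of cyclin-dependent kinases that myoblasts use on leaving the cell cycle, had groups that did not overlap. The gene (Gene ID 12577; 143458339 to 143461059) measured 33.1, 39.7 and 42.9 CPM in Control muscles and 45.7, 57.1 and 172.2 CPM in *FRAIL1* muscles. *FRAIL1* muscle 5 was far above the next muscle, at 62.9 CPM. The log2 fold change was 0.94 (SE 0.31, adjusted p = 0.0811 by edgeR), and 0.49 without that muscle (adjusted p = 0.00728 by edgeR). The gene model *Gm44732* overlaps 30.7% of its exon sequence.

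*Kcnq1ot1*, the paternally expressed noncoding RNA that silences this cluster in cis, had a log2 fold change in the same direction. Its values were 10.5, 12.3 and 13.5 CPM in Control and 12.5, 14.5 and 22.1 CPM in *FRAIL1* muscles, with a log2 fold change of 0.36 (SE 0.12, adjusted p = 0.0847 by edgeR), or 0.23 without *FRAIL1* muscle 5, and 4 *FRAIL1* muscles were above every Control muscle. *Cd81*, a widely expressed tetraspanin, was at 79.97, 82.9 and 95.1 CPM and at 79.4, 92.1 and 105.9 CPM, for a log2 fold change of 0.11 (SE 0.07, adjusted p = 0.317 by edgeR), or 0.062 without *FRAIL1* muscle 5. The potassium channel gene *Kcnq1* (0.228, 0.636 and 0.853 CPM against 0.344, 0.508 and 0.972 CPM) had a log2 fold change of 0.013 (SE 0.35, adjusted p = 0.986 by edgeR). The transporter gene *Slc22a18* (0.122, 0.295 and 0.658 CPM against 0.189, 0.323 and 0.627 CPM) had one of 0.13 (SE 0.43, adjusted p = 0.878 by edgeR). Both changed sign without *FRAIL1* muscle 5, to -0.20 and -0.039. *Phlda2*, a growth regulator of the placenta, reached at most 0.124 CPM in any muscle. The tested members of this cluster therefore ran from 0.013 to 0.94 on the log2 scale, with *Cdkn1c* alone above 0.36.

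In the Peg10 cluster on chromosome 6 a member that fell lies beside members with positive fold changes. *Asb4*, a maternally expressed SOCS-box protein that joins ubiquitin ligases, was the only member of the 34 that fell past the threshold. The gene (Gene ID 65255; 5383386 to 5433022) measured 12.1, 13.95 and 15.9 CPM in Control and 4.62, 9.17 and 11.5 CPM in *FRAIL1* muscles, so that the highest *FRAIL1* muscle lay below the lowest Control muscle. Means were 13.8 ± 1.48 and 8.91 ± 2.40 CPM (SD, n = 6 each), for a log2 fold change of -0.63 (SE 0.17, adjusted p = 0.0421 by edgeR), and -0.50 without *FRAIL1* muscle 5 (adjusted p = 0.00837 by edgeR). Leaving out any one Control muscle, or *FRAIL1* muscle 1, 4 or 6, gave adjusted p-values by edgeR between 0.0531 and 0.0851. The muscle with the highest *H19* and *Igf2*, *FRAIL1* muscle 5, had the lowest *Asb4*.

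*Peg10*, a paternally expressed gene derived from a retrotransposon, measured 1.02, 1.79 and 2.38 CPM in Control and 1.86, 3.31 and 12.9 CPM in *FRAIL1* muscles. The log2 fold change amounted to 1.40 (SE 0.44, adjusted p = 0.0686 by edgeR), and 0.78 without *FRAIL1* muscle 5 (adjusted p = 0.0481 by edgeR). *Ppp1r9a*, which encodes the actin-binding neurabin, measured 2.58, 3.01 and 3.84 CPM and 3.41, 3.92 and 7.22 CPM, for a log2 fold change of 0.53 (SE 0.18, adjusted p = 0.0781 by edgeR). It was 0.32 without *FRAIL1* muscle 5 (adjusted p = 0.133 by edgeR). *Sgce*, ε-sarcoglycan, lies next to *Peg10* and is expressed from the same paternal chromosome, but it measured 7.08, 8.80 and 10.6 CPM and 7.20, 7.96 and 13.7 CPM, for a log2 fold change of 0.032 (SE 0.15, adjusted p = 0.917 by edgeR). With *FRAIL1* muscle 5 left out it was -0.14. The 4 members of this cluster thus ranged from -0.63 to 1.40.

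The Dlk1/Meg3 cluster on chromosome 12 had high fold changes that rested on one muscle. It holds the paternally expressed *Dlk1*, a membrane protein of the Notch ligand family that is made by fetal and regenerating muscle, and *Rtl1*, a retrotransposon-derived gene needed in fetal muscle. On the maternal chromosome it gives the noncoding RNAs *Meg3*, *Rian* and *Mirg*, which carry many microRNAs and small nucleolar RNAs. The median log2 fold change of the 5 genes was 1.47, from 1.15 for *Meg3* to 1.99 for *Dlk1*. None passed the threshold in edgeR (adjusted p from 0.109 to 0.186) or limma. In edgeR 4 had an unadjusted p-value under 0.05. In DESeq2 *Rtl1* alone passed (adjusted p = 0.0265), and *Meg3*, *Rian* and *Mirg* got no adjusted p-value there. Without *FRAIL1* muscle 5 the median was 0.33 and the range 0.16 to 0.83.

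*Meg3* (Gene ID 17263; 109540996 to 109571729) measured 54.3, 71.0 and 86.0 CPM at the lowest, median and highest Control muscle and 71.1, 86.1 and 494.2 CPM in *FRAIL1* muscles. *FRAIL1* muscle 5 was 4.18 times the next *FRAIL1* muscle, at 118.3 CPM. For *Dlk1* (Gene ID 13386; 109452485 to 109463336) muscle 5 was at 43.1 CPM, 6.62 times the next, while the other *FRAIL1* muscles lay between 1.39 and 6.51 CPM and the Control muscles between 1.18 and 4.79 CPM. *Rian* was at 223.9 CPM in that muscle against at most 33.5 CPM in any other muscle. *Mirg* was at 16.7 CPM against at most 2.16 CPM, and *Rtl1* at 3.78 CPM against at most 1.08 CPM. *Dlk1* and the maternal RNAs, expressed from opposite chromosomes, were thus high in the same muscle. The *Rtl1* counts may include reads of the maternal transcripts opposite to it, as the strand setting of the counting is not known. In the other 5 *FRAIL1* muscles all 5 genes overlapped the Control muscles.

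*Rtl1* runs against the maternal transcripts, and 13 microRNA hairpins lie opposite to it, along with 2 on its own strand. The best known of them pair perfectly with *Rtl1* RNA and cut it. They are shown because gene and microRNAs come from opposite strands and opposite parental chromosomes of one region, with seeds in capitals.
miR-431-5p: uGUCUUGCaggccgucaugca
miR-433-3p: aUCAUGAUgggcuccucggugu
miR-127-3p: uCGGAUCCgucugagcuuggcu
miR-434-3p: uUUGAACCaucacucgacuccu
miR-136-5p: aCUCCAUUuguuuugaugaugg
Across the hosts *H19*, *Igf2*, *Mest*, *Meg3*, *Rian*, *Mirg* and *Rtl1* there are 62 distinct mature microRNAs with 60 seeds, of which 2 are shared by a pair each. *Gm27000* shares 285 bases with *Meg3* at 99.65% identity, so reads could be split between them there.

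**Figure D3:**
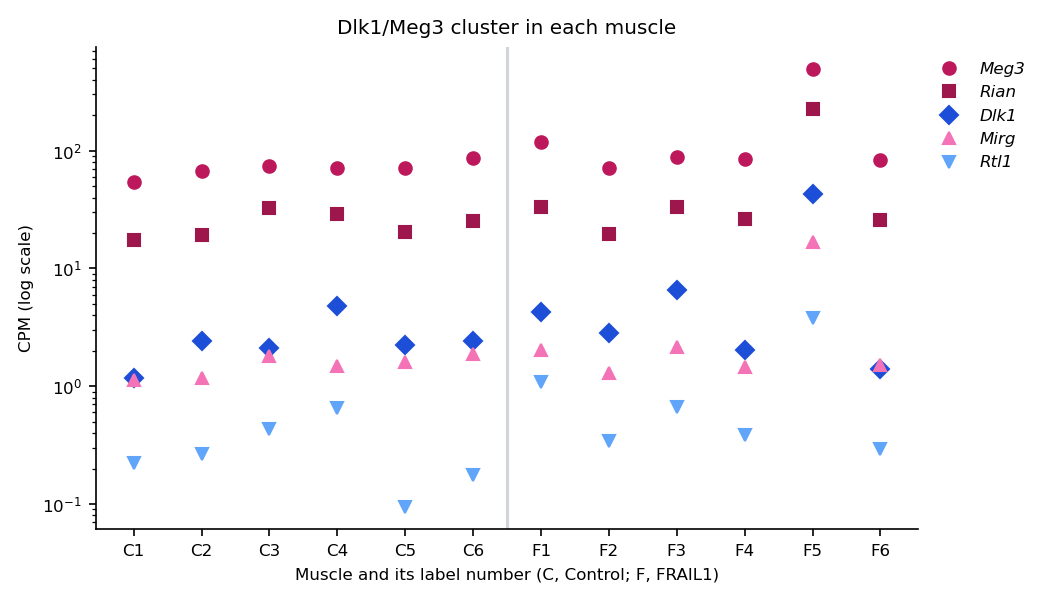
CPM on a log axis of the 5 genes of the Dlk1/Meg3 cluster in each muscle, Control (C) and *FRAIL1* (F), by label number. In F5 all 5 genes stand at their highest, *Meg3* at 494.2 CPM, while the other *FRAIL1* muscles lie in or near the Control range.

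*Plagl1*, a paternally expressed zinc finger factor known to control other imprinted genes, had a median of 2.64 CPM in Control muscles (2.28 to 5.08) and of 4.95 CPM in *FRAIL1* muscles (4.43 to 27.1). Its log2 fold change was 1.51 (SE 0.49, adjusted p = 0.0787 by edgeR), and 0.71 without *FRAIL1* muscle 5 (adjusted p = 0.0286 by edgeR). In the Snrpn/Ube3a cluster, the region of Prader-Willi and Angelman syndromes, no member passed: 0 of 3 tested had even an unadjusted p-value under 0.05 in edgeR, and DESeq2 and limma called none. *Ndn*, necdin, measured 6.19 to 9.57 CPM in Control and 8.25 to 12 CPM in *FRAIL1* muscles (log2 fold change 0.24, adjusted p = 0.187 by edgeR). *Peg12* and the ubiquitin ligase gene *Ube3a* had log2 fold changes of 0.44 and -0.12. *Snrpn* reached at most 0.224 CPM and *Magel2* at most 0.0689 CPM.

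The other lone imprinted genes, apart from *Mest*, *Grb10* and *Plagl1* described above, had negative fold changes. *Slc38a4*, a paternally expressed transporter of amino acids, was lower in *FRAIL1* muscles on average, at 81.2 to 137.7 CPM against 98.2 to 185.7 CPM, with a log2 fold change of -0.43 (SE 0.15, adjusted p = 0.089 by edgeR). *Zrsr1*, a splicing protein gene nested in an intron of *Commd1*, had one of -0.37 (SE 0.15, adjusted p = 0.138 by edgeR), and *Nnat*, neuronatin, one of -0.60 (SE 0.29, adjusted p = 0.188 by edgeR). None of these 3 passed in edgeR without a block, and their groups overlapped. *Slc38a4* passed in DESeq2 (adjusted p = 0.0339) and in limma (adjusted p = 0.049), and the other two passed in neither. With a block for the replicate number, which no label ties to a mouse, *Slc38a4* had an adjusted p-value of 0.0086 by edgeR. *Gnas*, the gene of the stimulatory G protein subunit, had the second highest level per length, 112 CPM per kilobase in Control and 111 in *FRAIL1* muscles, and means of 1256 ± 49.9 and 1239 ± 65.4 CPM (SD, n = 6 each). With *Impact*, *Nap1l5*, *Inpp5f* and *Ube3a* it made 5 members with log2 fold changes between -0.12 and -0.020 and adjusted p-values of 0.34 or more by edgeR.

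Split by the parental copy listed, both kinds had a positive median. Of 13 maternally expressed members tested, 12 had a positive fold change, 3 rose (*H19*, *Igf2r* and *Grb10*) and 1 fell (*Asb4*), and the median was 0.73 on the log2 scale. Of 18 paternally expressed members tested, 12 had a positive fold change, 2 rose (*Igf2* and *Peg3*), and the median was 0.40. None of the 18 fell past the threshold in edgeR without a block, where 2 were lower at an unadjusted p-value under 0.05, and 1 was lower in DESeq2 and 1 in limma. Without *FRAIL1* muscle 5 the medians were 0.21 and 0.23, so that the paternally expressed members then had the higher median. The difference between them was not tested.

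A list of 57 other imprinted genes was written from general knowledge, of which 53 were in the table and 40 were tested. Of the 40, 7 rose and none fell past the threshold in edgeR (17.5%, beside 6.28% of all genes), where 4 were lower at an unadjusted p-value under 0.05, 3 in DESeq2 and 1 in limma. Their median log2 fold change was 0.015, beside 0.0096 over all genes, and the 33 that did not pass ranged from -0.47 to 1.54. At an unadjusted p-value under 0.05 there were 15 of the 40. In DESeq2 11 passed and in limma 8, beside 2232 and 1836 of the 15502 genes. *FRAIL1* muscle 5 was highest for 11 and lowest for 10 of the 40.

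*Ddc*, the enzyme that makes dopamine and serotonin and a neighbor of *Grb10* on chromosome 11, had the largest change: 0.483 to 0.731 CPM in Control and 1.58 to 4.86 CPM in *FRAIL1* muscles, for a log2 fold change of 2.04 (SE 0.27, adjusted p = 0.00165 by edgeR). *Zdbf2*, a zinc finger gene, was at 3.29 to 4.79 CPM and 6.61 to 28.3 CPM (log2 fold change 1.78, SE 0.32, adjusted p = 0.0124 by edgeR). *Gatm*, the first enzyme of creatine synthesis, was at 7.09 to 10.6 CPM and 12.8 to 44.7 CPM (log2 fold change 1.43, SE 0.26, adjusted p = 0.0137 by edgeR). *Tnfrsf23*, a decoy receptor for TRAIL beside the Kcnq1 cluster, was at 6.54 to 11.6 CPM and 13.1 to 23.7 CPM (log2 fold change 0.98, adjusted p = 0.0131 by edgeR).

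Smaller changes were seen for *Copg2*, a coat protein of Golgi vesicles that overlaps *Mest* (log2 fold change 0.35, adjusted p = 0.0302 by edgeR), and for *Pon2*, a paraoxonase of the Peg10 cluster (0.26, adjusted p = 0.0124 by edgeR). *Tfpi2*, a protease inhibitor of the same cluster, had a log2 fold change of 0.90 (adjusted p = 0.0396 by edgeR), and one *FRAIL1* muscle overlapped the Control muscles. For the other 6 of these 7 genes the groups did not overlap. Without *FRAIL1* muscle 5, *Tfpi2* no longer passed (adjusted p = 0.0656 by edgeR).

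**Figure D4:**
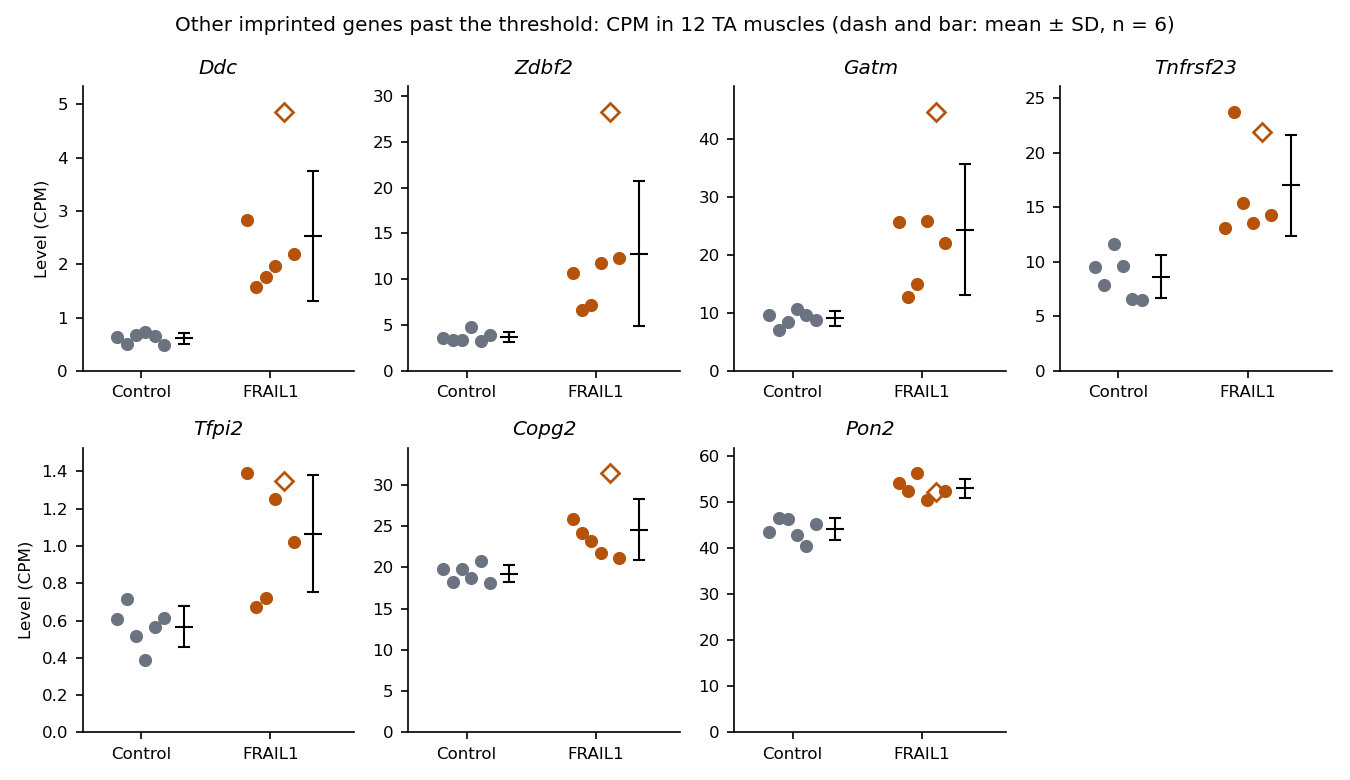
CPM (vertical axes from 0) of the 7 other imprinted genes past the threshold in 6 Control and 6 *FRAIL1* muscles, with mean and SD and *FRAIL1* muscle 5 as an open diamond. *Pon2* has the tightest groups, and *FRAIL1* muscle 5 is within the range of the other *FRAIL1* muscles for *Pon2*, *Tnfrsf23* and *Tfpi2*.

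Genes that set, read or protect imprints, such as DNA methyltransferases and KRAB zinc finger partners, made a list of 22, of which 20 were tested. None passed in edgeR, the lowest adjusted p-value being 0.0609, with 4 at an unadjusted p-value under 0.05 and 2 passing in DESeq2 and 2 in limma. Their summed level was 479.5 to 515.2 CPM in Control and 485.9 to 541.7 CPM in *FRAIL1* muscles, and the median log2 fold change was 0.053. For 2 of the 20 genes (10%, beside 4.88% of all genes) the groups did not overlap, and both are named for their values. *Setdb1* lay above, at 17.05 to 20.34 CPM in Control and 21.04 to 23.14 CPM in *FRAIL1* muscles. *Ctcf* lay below, at 43.89 to 50.75 CPM in Control and 38.42 to 43.5 CPM in *FRAIL1* muscles. Of 17 genes around the IGF2 signal (receptors, binding proteins and RNA-binding regulators), 15 were tested and 1 passed in edgeR. *Lin28a*, an RNA-binding protein that blocks let-7 and binds *Igf2* mRNA, rose from a mean of 0.263 to 1.11 CPM (log2 fold change 2.05, SE 0.33, adjusted p = 0.00391 by edgeR), with no overlap of the groups. At 0.141 to 0.406 CPM in Control and 0.603 to 1.76 CPM in *FRAIL1* muscles, it rests on few counts. In the same list 7 genes were under 0.05 before adjustment in edgeR, 3 passed in DESeq2 and 1 in limma, and 2 were higher without *FRAIL1* muscle 5. The groups did not overlap for 2 of the 15 genes (13.3%, beside 4.88% of all genes). They were *Lin28a* and *Igfbp4*, an IGF binding protein named after its values were seen (35.5 to 51.1 CPM in Control and 52.9 to 192.5 CPM in *FRAIL1* muscles). *Igfbp4* had a log2 fold change of 0.84 (adjusted p = 0.109 by edgeR), and 0.38 without *FRAIL1* muscle 5 (adjusted p = 0.026 by edgeR).

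Markers of young fibers were also higher. All 6 of the regenerating fiber list rose in the *FRAIL1* muscles, as for *Myh3*, the embryonic myosin (41.6 to 62.6 CPM in Control and 104.5 to 541.2 CPM in *FRAIL1* muscles, log2 fold change 2.16, adjusted p = 0.0124 by edgeR), and for *Myog*, myogenin (8.71 to 13.5 CPM and 20.3 to 64.1 CPM, log2 fold change 1.46, adjusted p = 0.0124 by edgeR). Their summed level was 153.5 to 204.7 CPM in Control and 324.7 to 1580 CPM in *FRAIL1* muscles, and at most 669.6 CPM without muscle 5. Among the *FRAIL1* muscles this sum was highest in muscle 5, followed by muscles 1, 4 and 6, with muscles 2 and 3 at the end. *Igf2* had the order 5, 1, 4, 6, 3 and 2, which 3 of the 34 tested members had, the others being *Mest* and *Grb10*. The other called members differed from it, *H19* with 5, 1, 6, 4, 3 and 2, *Igf2r* with 5, 1, 2, 4, 3 and 6, *Peg3* with 5, 1, 2, 4, 6 and 3, and *Asb4* with 2, 4, 3, 1, 6 and 5. The summed satellite cell and myoblast markers had the same order as *Igf2*, 5, 1, 4, 6, 3 and 2. The summed fibroblast and fibro-adipogenic progenitor markers ran 5, 1, 4, 2, 6 and 3, and the macrophage markers 1, 4, 5, 6, 2 and 3. The sums of the remaining marker lists were highest in muscle 3 or 6. These orders are a description over 6 muscles, and each pair of values compared comes from the same library. The part of young fibers in the levels of the imprinted genes was not tested.

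Other cell types differed less evenly, though the satellite cell and fibroblast sums did not overlap between the groups either. The summed satellite cell and myoblast markers were at 214.0 to 242.4 CPM in Control and 260.3 to 364.1 CPM in *FRAIL1* muscles, where 1 of 7 genes rose in edgeR, 5 were higher at an unadjusted p-value under 0.05, 4 in DESeq2 and 1 in limma. The gene that rose, *Itga7*, was at 142.9 to 168.2 CPM and 170.8 to 262.7 CPM and made up most of the sum, while *Pax7* was at 1.38 to 3.11 CPM and 3.06 to 4.56 CPM. Fibroblast and fibro-adipogenic progenitor markers, whose cells also express several imprinted genes, were at 1060 to 1875 CPM and 1977 to 4975 CPM. Most of this sum came from the collagen genes *Col1a1* (310.5 to 574.6 CPM and 608.5 to 1969 CPM) and *Col3a1* (449.0 to 880.1 CPM and 976.8 to 2531 CPM). *Dcn* had a log2 fold change of 0.019, 2 of the 8 genes had a negative one, and the median was 0.20. *FRAIL1* muscle 5 had 4975 CPM, beside at most 2445 CPM in the other *FRAIL1* muscles, and 0 of these 8 genes passed in edgeR, 3 did at an unadjusted p-value under 0.05, 3 in DESeq2 and 2 in limma. Macrophage markers were at 106.4 to 165.4 CPM and 136.5 to 297.5 CPM. None of the 6 passed in edgeR, 5 had an unadjusted p-value under 0.05, and 5 passed in DESeq2 and 3 in limma. Endothelial markers were at 370.3 to 424.1 CPM and 295.5 to 377.8 CPM, where 2 of 6 (*Tek* and *Vwf*) fell in edgeR. At an unadjusted p-value under 0.05 there were 3 lower genes, and 3 passed as lower in DESeq2 and 3 in limma.

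Mature fiber markers (*Ckm*, *Acta1*, *Myh4* and 4 others) summed to 122000 to 145300 CPM in Control muscles and 95120 to 129400 CPM in *FRAIL1* muscles, lowest in muscle 5, so all 12 libraries carry the labelled tissue. Of the 7 genes, *Ckm*, muscle creatine kinase, fell (log2 fold change -0.38, adjusted p = 0.0482 by edgeR). At an unadjusted p-value under 0.05 there were 3 lower genes, and 3 passed as lower in DESeq2 and 3 in limma. The groups did not overlap for 1 of the 7 (14.3%, beside 4.88% of all genes). It was *Myh4*, at 40800 to 51020 CPM in Control and 22440 to 40290 CPM in *FRAIL1* muscles. In the tenocyte list 2 of 5 genes rose (*Scx* and *Thbs4*), and the sums were 141.5 to 297.9 CPM and 237.6 to 477.6 CPM. Schwann cell, smooth muscle and adipocyte sums overlapped between groups, and none of their genes passed in edgeR. At an unadjusted p-value under 0.05 there were 2, 4 and 2 such genes, in DESeq2 2, 1 and 0, and in limma 0, 1 and 0. No listed marker was at 0 in all 12 muscles. The part of these cell types in the levels of the imprinted genes was not tested.

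**Figure D5:**
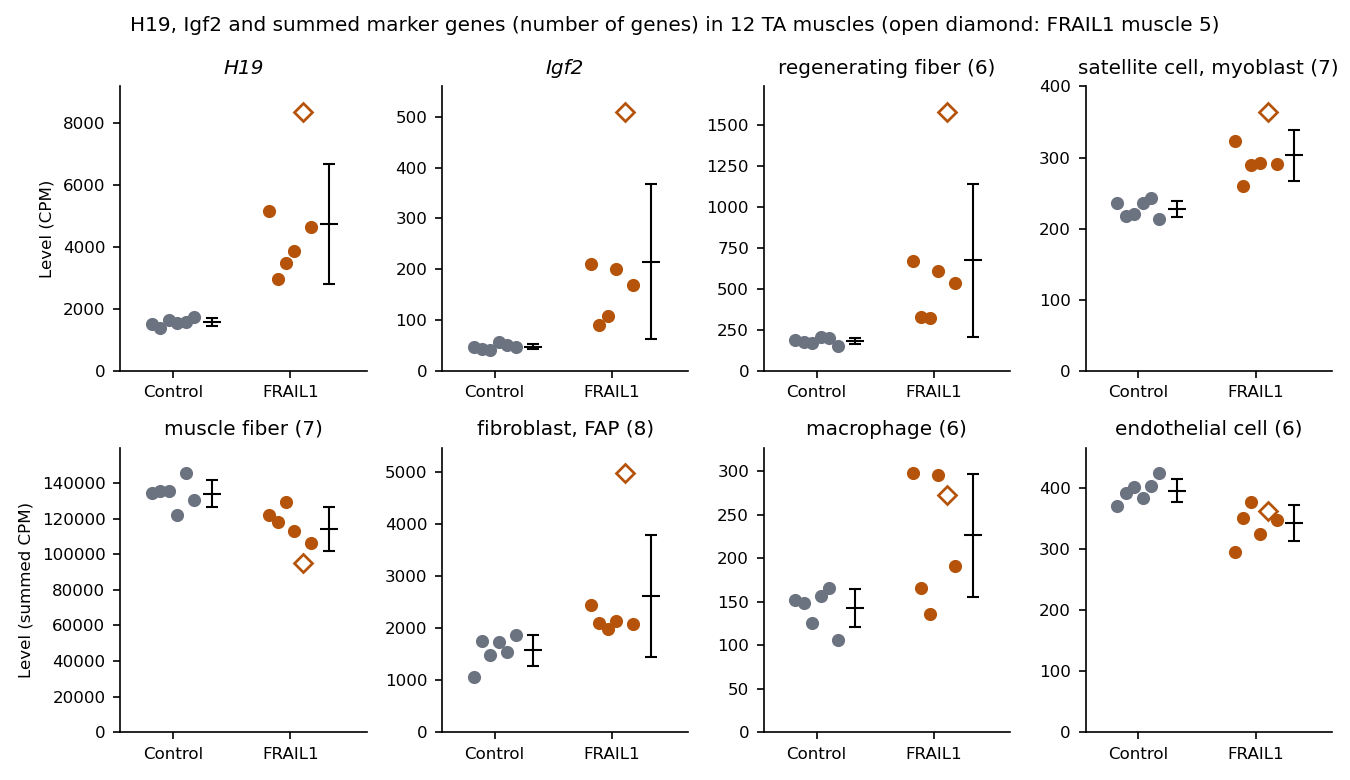
CPM of *H19* and *Igf2* and summed CPM of 6 marker lists in each muscle (vertical axes from 0), with mean and SD and *FRAIL1* muscle 5 as an open diamond. The regenerating fiber sums of the *FRAIL1* muscles, from 324.7 to 1580 CPM, lie above all Control sums, as *H19* and *Igf2* do. So do their satellite cell and myoblast sums (260.3 to 364.1 CPM) and fibroblast sums (1977 to 4975 CPM). The mature fiber sum of muscle 5 is the lowest of the 12.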

How the data were processed

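RNA-seq was done on 12 TA muscles, 6 Control and 6 *FRAIL1*, as grouped by the labels. The deposited values are raw read counts per gene, which the authors made from paired-end NovaSeq reads of poly(A)-selected libraries. The submitters' processing notes name Trimmomatic, STAR 2.7.8a, featureCounts 2.0.1 and the mm10 build; whether counting used strand is not given in the sources used here. Symbols were matched for 25275 of 27179 Gene IDs, and unmatched IDs hold 0.28% of counts. Totals were 45018389 to 59309210 counts per Control muscle and 44848322 to 60527385 per *FRAIL1* muscle. No 2 libraries of a group agreed within sampling noise (chi-square per degree of freedom at least 14.5). Replicates are separate muscles.

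Counts were scaled with TMM factors, filtered with filterByExpr and tested with edgeR's robust quasi-likelihood test (edgeR 4.0.16, R 4.3.3), with Benjamini-Hochberg adjustment over the 15502 genes tested and a threshold of 0.05. DESeq2 1.42.0, limma 3.58.1 with voom, other scalings and filters, a replicate block and leaving out muscles were alternatives. The code was tested on simulated data. Shared exon sequence was taken from the annotation, and near-identical copies were sought with BLAST 2.17.0. Sequences are from RefSeq, GRCm38.p6.

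Members, lists and tests were chosen with earlier results of these data known. Named in full were members past the threshold and the members of each cluster that holds such a member or one whose groups do not overlap. Others are given by range and count. Of other lists, only genes past the threshold and genes that define a cell type were named, with exceptions marked in the text.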

Additional observations from a re-analysis of the deposited data

Results flagged for a closer look

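In each group of 6 muscles, the highest and the lowest value of every tested member were compared with their nearest neighbor by Dixon's ratio of gap to range. Of 68 groups, 21 held a muscle past its 95% critical value, where chance alone flags about 1 in 20 independent groups. These groups are not independent, since the members were measured in the same muscles and were chosen from results of them, so the count is a description. *FRAIL1* muscle 5 was that muscle in 16, always as the highest, and Control muscles in the other 5.

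In *FRAIL1* muscle 5, *Igf2* stood at 509 CPM (next 210) and *Mest* at 144 CPM (next 35.4). All 5 genes of the Dlk1/Meg3 cluster stood apart there, *Meg3* at 494 CPM (next 118), *Rian* at 224 CPM (next 33.5), *Dlk1* at 43.1 CPM (next 6.51), *Mirg* at 16.7 CPM (next 2.16) and *Rtl1* at 3.78 CPM (next 1.08). So did *Cdkn1c* at 172 CPM (next 62.9), *Grb10* at 139 CPM (next 69), *Peg3* at 36.4 CPM (next 21.9), *Plagl1* at 27.1 CPM (next 5.85) and *Usp29* at 1.12 CPM (next 0.626). The Peg10 cluster had *Sgce* at 13.7 CPM (next 9.06), *Peg10* at 12.9 CPM (next 3.72) and *Ppp1r9a* at 7.22 CPM (next 4.22), and *Ndn* was at 12 CPM (next 9.41). The same muscle had the highest regenerating fiber sum (1580 CPM) and fibroblast sum (4975 CPM) and the lowest mature fiber sum (95120 CPM) of the 12, and their part in these values was not tested.

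Among Control muscles, muscle 4 was highest for *Dlk1* (4.79 CPM, next 2.43) and *Plagl1* (5.08 CPM, next 3.03), and muscle 6 for *Ppp1r9a* (3.84 CPM, next 3.02). Muscle 5 was lowest for *Peg3* (8.09 CPM, next 10.5) and *Ube3a* (15.4 CPM, next 19).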

How the results depend on the processing

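*H19*, *Igf2* and *Peg3* passed the threshold under all 24 alternatives run, each with the direction given in the report, while *Igf2r* passed in 15, *Grb10* and *Asb4* in 14 each and *Mest* in 10. Against 974 genes called in all, there were 2186 with a replicate block, 2232 in DESeq2, 2898 in DESeq2 with the block, 1836 in limma and 2305 without both muscles numbered 5 and with the block, and 364 to 2110 with one muscle left out. Members called (6) became 12 in DESeq2, with or without the block, 11 in limma, 11 without both muscles numbered 5 and with the block, and 3 to 10 with one muscle left out. Other imprinted genes called (7) became 11 in DESeq2, 13 with the block, and 5 to 11 with one muscle left out. The cause was not tested. The median of maternally expressed members, 0.73 on the log2 scale, was 0.23 without both muscles numbered 5, 0.24 when these were left out and the block kept, and 0.21 to 0.84 with one muscle left out, lowest without *FRAIL1* muscle 5. The Peg3 cluster's median was 0.39 without both muscles numbered 5 and with the block. Other scalings moved the median of all genes by at most 0.02.

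The log2 fold changes of 4 members that never passed turned sign. With one muscle left out, *Slc22a18* ran from -0.0718 to 0.401, *Kcnq1* from -0.201 to 0.162, *Sgce* from -0.135 to 0.096 and *Inpp5f* from -0.0799 to 0.00598. *Kcnq1* was -0.12 in limma and -0.16 without both muscles numbered 5 (-0.11 with the block). *Sgce* was -0.00163 in DESeq2 with the block, -0.11 in limma and -0.14 without both muscles numbered 5 (-0.13 with the block).

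Labels give both groups the numbers 1 to 6 but do not state that a number is a mouse. Deviations from the group means of same-numbered muscles correlated at 0.0723 to 0.35 (mean 0.248, against -0.0496 for other pairs), over 0.1 for 5 of 6 numbers, and 5 of 6 Control muscles correlated best with their own number. With the replicate block 6 of the 34 tested members were again called, while the genes called in all went from 974 to 2186 of 15502. *Grb10* then had an adjusted p-value of 0.0712 and *Slc38a4* of 0.0086 by edgeR. At these depths members under 1 CPM, 4 of those tested, rest on few counts, 6 to 60 per muscle for *Kcnq1*, *Slc22a18*, *Usp29* and *Peg12*. *Rtl1*, with a mean of 1.09 CPM in *FRAIL1* muscles, also rests on few counts. It had 4 to 32 counts in Control muscles and 15 to 202 in *FRAIL1* muscles, highest in *FRAIL1* muscle 5.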

Other observations

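*Nctc1*, a noncoding RNA downstream of *H19* whose region holds a muscle enhancer shared by *H19* and *Igf2*, was looked up after the values of these genes were seen. It measured 88.6 to 112.8 CPM in Control and 72.2 to 93.9 CPM in *FRAIL1* muscles, so that its mean was lower in the *FRAIL1* muscles (81.9 ± 8.34 against 95.8 ± 9.16 CPM, SD, n = 6 each), but it did not pass the threshold (log2 fold change -0.23, adjusted p = 0.082 by edgeR, and 0.125 without *FRAIL1* muscle 5).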
